A study of Homo sapiens with 4 samples.

Results

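Oncofetal and liver progenitor genes are genes that are active in the fetal liver or in progenitor cells of the liver, quiet in mature hepatocytes and often active again in hepatocellular carcinoma. The 10 genes AFP, GPC3, DLK1, SALL4, LIN28B, IGF2BP1, IGF2BP3, EPCAM, PROM1 and SOX9 were taken by symbol, as 10 of the 44591 genes in the expression tables. RNA-seq was performed on 4 libraries labelled HepG2, a hepatoblastoma-derived liver cancer cell line, to find genes that respond to LINC01186, a long non-coding RNA that the study names SALIS. The comparison was between groups of n = 2 each, cells given the control siRNA siNC and cells given the siRNA siLINC01186. All cells were transfected at about 70% confluency, kept for 6 h without serum and then for 24 h in medium with 10% serum, and the labels give neither group any other treatment or genetic change. The study describes the replicates as biological repeats that received the same siNC and different oligonucleotides against SALIS, and the labels do not tie an oligonucleotide to a library. The p-values below therefore cover the spread between these libraries, which includes any difference between oligonucleotides.

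The members work at different steps of the fetal liver programme. AFP is the main plasma protein of the fetal liver, GPC3 is a heparan sulfate proteoglycan anchored to the cell membrane, and DLK1 is a membrane protein of hepatoblasts related to the Notch ligands. SALL4 is a zinc-finger transcription factor of embryonic stem cells and fetal liver, and SOX9 is a transcription factor of bile duct and progenitor cells. LIN28B blocks the maturation of the let-7 microRNAs, and let-7 in turn binds the transcripts of several oncofetal genes. IGF2BP1 and IGF2BP3 are RNA-binding proteins that stabilise transcripts such as MYC. EPCAM, an adhesion molecule, and PROM1, the antigen CD133, are surface markers of hepatic progenitor and tumour-initiating cells. In the deposited tables (hg19), AFP lies at chr4:74301936-74321502, GPC3 at chrX:132669773-133119673, DLK1 at chr14:101193202-101204561, SALL4 at chr20:50399256-50419062 and LIN28B at chr6:105404923-105531207. IGF2BP1 lies at chr17:47074774-47133507, IGF2BP3 at chr7:23349828-23509995, EPCAM at chr2:47596287-47614167, PROM1 at chr4:15969849-16085623 and SOX9 at chr17:70117161-70122561.

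The RNA-binding members and SALL4 share a sequence feature in their 3′UTRs. The let-7 family binds through bases 2 to 8, and the mature let-7a-5p from RefSeq is shown because its seed, in capitals, is the one that these transcripts match.
hsa-let-7a-5p: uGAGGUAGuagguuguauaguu
A match to the seed reads CTACCTC in the transcript, and it was searched on the sense strand of the 3′UTR. For each gene, the 1 transcript with the longest annotated 3′UTR in GENCODE release 29 (GRCh38) was used. Whether these libraries express that form was not tested, and a shorter 3′UTR can hold fewer matches. Of 14806 tested genes with a 3′UTR, 10.7% held the match. LIN28B and IGF2BP1 each held 4 matches, a number reached by only 12 of the 14806 genes. SALL4 and IGF2BP3 each held 1 match, and AFP, GPC3, DLK1, EPCAM, PROM1 and SOX9 held none in the 3′UTR searched. These 3′UTRs differ in length, from 379 nt in GPC3 to 6206 nt in IGF2BP1, against a median of 1272 nt over the genes searched. Among the 5195 genes with a 3′UTR of at least 1934 nt, the length in SALL4, 20.4% held the match. A match is a description of the letters and not a measured binding event.

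The let-7 window of 24 nt nearest to the stop codon in each of these 4 genes is shown, in the sense of the transcript and with the match in capitals, so that the shared letters and the differing surroundings can be compared.
SALL4, chr20:51782918-51782941, minus strand, exon 4 of 4: ctttaatttatCTACCTCatttat
LIN28B, chr6:105078816-105078839, plus strand, exon 4 of 4: ggttgcaaagtCTACCTCatgcaa
IGF2BP1, chr17:49051065-49051088, plus strand, exon 15 of 15: tgcgaagtaaaCTACCTCaaggta
IGF2BP3, chr7:23311790-23311813, minus strand, exon 15 of 15: tttttactcaaCTACCTCaggtat
In each of the 4 windows the match is followed by an A. This does not hold for every let-7 match of these genes. The matches at positions 2471 and 4092 of the LIN28B 3′UTR and 5568 of the IGF2BP1 3′UTR are followed by a T.

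The oligonucleotides against SALIS were searched in the same 3′UTRs, because a siRNA strand can also pair with other transcripts through bases 2 to 8. The sources used here do not say which strand is the guide, so the printed strand and its complement are both shown, with those bases in capitals.
siSALIS_01: aGGGCTCTattgggcaaaaa
siSALIS_01, complement: tTTTTGCCcaatagagccct
siSALIS_02: cTAAGTGActcactgcatc
siSALIS_02, complement: gATGCAGTgagtcacttag
The match to the printed strand of siSALIS_01, AGAGCCC, occurred 5 times in IGF2BP1 and 2 times in DLK1, and 13.1% of the 14806 genes held it. That share counts genes with any match, and the share with as many as 5 was not computed. The 3′UTRs of IGF2BP1 (6206 nt) and DLK1 (3328 nt) are long beside the median of 1272 nt. The match to its complement, GGCAAAA, occurred once in IGF2BP3 (14.0% of the genes). The match to the printed strand of siSALIS_02, TCACTTA, occurred in no member (12.1% of the genes). The match to its complement, ACTGCAT, occurred once, in LIN28B (13.5% of the genes), within the window chr6:105081539-105081562 on the plus strand.
LIN28B, window of the ACTGCAT match: agcaattcacaACTGCATgtttct
The remaining members held none of these 4 matches.

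**Figure D1:**
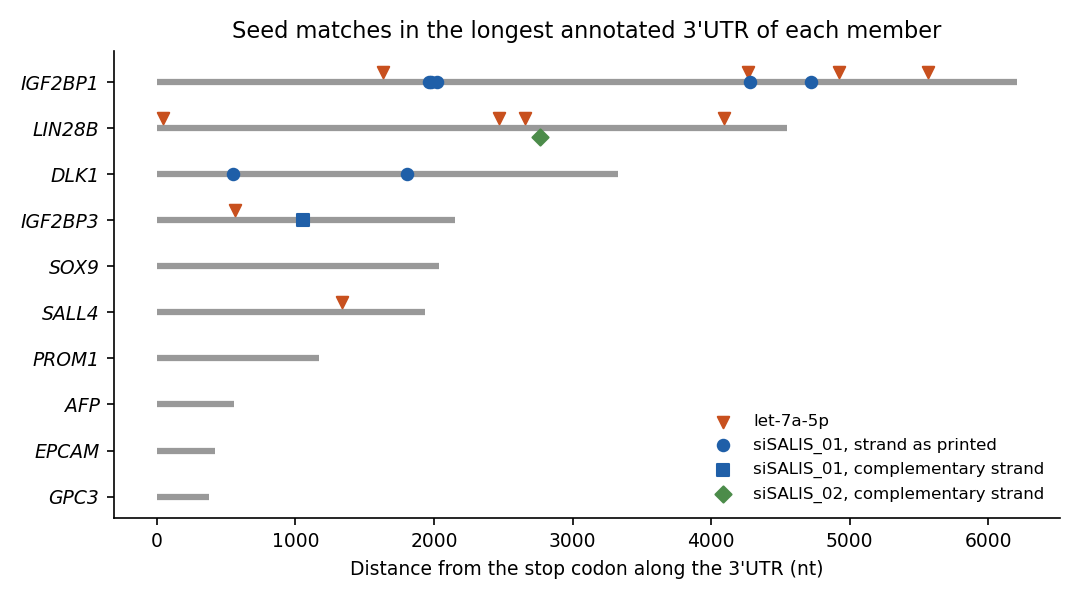
Positions of the seed matches along the 3′UTRs of the 10 members, in nucleotides from the stop codon on the x axis, with one line per gene drawn to the length of its 3′UTR. LIN28B and IGF2BP1 carry 4 let-7 matches each, and IGF2BP1 carries 5 matches to the printed strand of siSALIS_01.

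The libraries held 14968958 to 17297245 counts, so that 3 counts, the upper limit a count of 0 allows, corresponded to 0.169 to 0.210 CPM (counts scaled to a library size of 1000000 after TMM normalization). This floor and the intervals of count ratios below cover counting error only. The targeted RNA was weakly covered, with 15 and 14 counts in siNC and 12 and 14 in siLINC01186, replicates 1 and 2 in that order. LINC01186 was at 0.881 ± 0.0200 CPM in siNC and 0.814 ± 0.0368 CPM in siLINC01186 (SD, n = 2), with a ratio of summed counts of 0.920 and an exact 95% interval of 0.520 to 1.62. A fall of the target was not detectable at this depth. The study reports knockdown of SALIS by its siRNAs in HepG2 cells, measured by qPCR, and does not say whether the sequenced cultures were among those measured.

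The label HepG2 was checked against 7 hepatocyte plasma protein genes, ALB, TTR, APOA1, SERPINA1, APOB, TF and FGB, since this line is known to secrete albumin and alpha-fetoprotein. Their values went against the label. ALB was at 0 counts in both replicate 1 libraries, and at 15 in siNC and 14 in siLINC01186 of replicate 2. The summed level of the 7 genes was 0.0597 CPM in siNC and 0.210 CPM in siLINC01186 of replicate 1, and 6.75 and 3.94 CPM in replicate 2. Each of the 7 genes was at 0 or 1 count in replicate 1, and TTR was above 0 only in siLINC01186 replicate 2, with 3 counts. One gene of the mature liver was abundant, CPS1, the mitochondrial enzyme of the urea cycle, at 314 ± 46.0 TPM in siNC. TPM are counts divided by gene length and scaled to 1000000 a library, and are used below to compare baseline levels between genes. Sums over lists and the choice of the most abundant gene of each list are in CPM, which leaves gene length in. The study describes typing its HepG2 stock by short tandem repeats with a match to a HepG2 line, and does not say whether the sequenced cultures were typed. The libraries are called by their labels here, and the identity of the cells was not tested.

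In siNC, the members fell into a group of expressed genes and a group at or near the counting floor. Only 5 of the 10, IGF2BP3, IGF2BP1, SALL4, SOX9 and EPCAM, exceeded 3 counts in every library. AFP and LIN28B exceeded them in 3 libraries, PROM1 in 1, and GPC3 and DLK1 in none. Both classical serum and surface markers of liver tumours, AFP and GPC3, were thus at or close to the floor.

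IGF2BP3 was the most abundant member by TPM, at 49.9 and 44.9 TPM in siNC replicates 1 and 2 (47.4 ± 3.59, SD, n = 2), above 85.2% of the 23942 genes tested. IGF2BP1 followed at 31.8 and 27.8 TPM (29.8 ± 2.82) and stood above 78.2% of the genes tested. The libraries of these genes did not overlap, so that the order IGF2BP3 over IGF2BP1 held in each siNC library. SALL4 was at 8.08 and 14.6 TPM (11.3 ± 4.60), and SOX9 was at 8.89 and 10.8 TPM (9.84 ± 1.34). SALL4 and SOX9 overlapped, with SOX9 higher in replicate 1 and SALL4 higher in replicate 2. EPCAM was at 4.90 and 7.21 TPM (6.05 ± 1.63), below both SOX9 values.

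Among the low members, LIN28B was at 0.353 and 0.297 TPM in siNC (0.325 ± 0.0399), above 15.3% of the genes tested. AFP was at 0.127 and 0.400 TPM (0.264 ± 0.193), which overlapped LIN28B. GPC3 was at 0.0841 ± 0.0422 TPM and PROM1 at 0.0617 ± 0.00214 TPM. DLK1 was at 0 and 0.0581 TPM. These last 3 genes had 0 to 2 counts a library in siNC, and their order cannot be told at this depth.

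**Figure D2:**
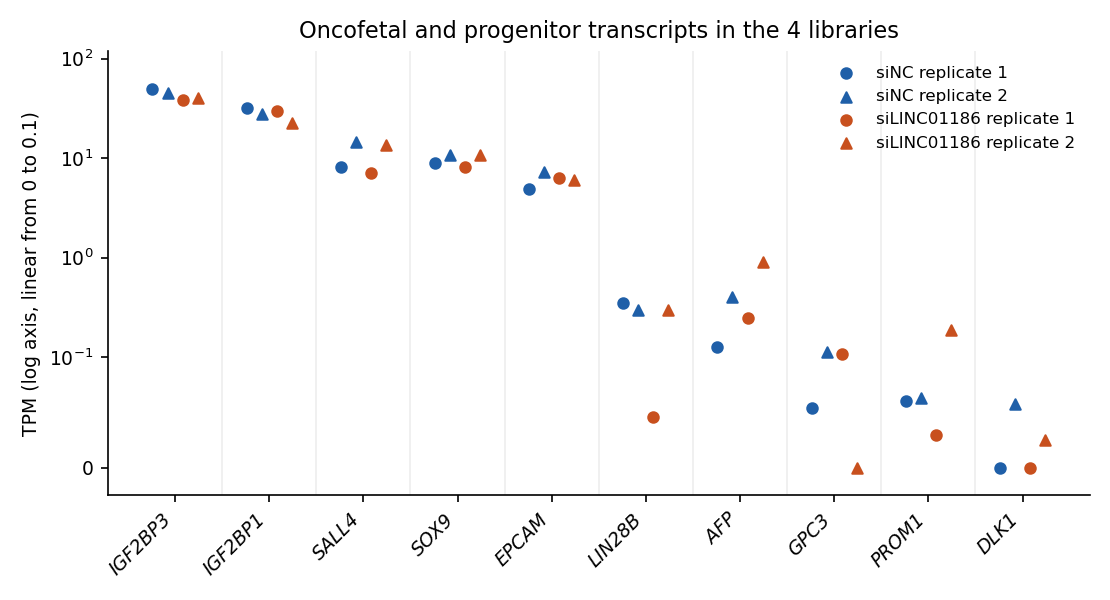
Level of each of the 10 members in each of the 4 libraries, with TPM on a log y axis that is linear from 0 to 0.1 and genes on the x axis ordered by their mean in siNC. In siNC, IGF2BP3, IGF2BP1, SALL4, SOX9 and EPCAM sit between 4.90 and 49.9 TPM, and the highest value among the other 5 members is 0.400 TPM, of AFP.

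Paralogs of GPC3, PROM1 and DLK1 were expressed where these members were near the floor. GPC1, another glypican, was at 126 ± 16.0 TPM in siNC, the highest of the glypicans listed, against 0.0841 ± 0.0422 for GPC3. The other glypicans listed were far below GPC1 in siNC. GPC2 was at 7.47 ± 2.58 TPM, GPC4 at 2.06 ± 0.0968, GPC5 at 0.635 ± 0.213 and GPC6 at 0.251 ± 0.0308. PROM2, the paralog of PROM1, was at 10.0 ± 4.08 TPM. DLK2, the paralog of DLK1, was at 6.68 ± 1.06 TPM. GPC1, PROM2 and DLK2 each exceeded the member of their family in both siNC libraries. The opposite held for SALL4, whose paralogs SALL1 and SALL3 were at 0 counts in every library and SALL2 at 2 or 3 counts, and for LIN28B, whose paralog LIN28A had 4 counts in siNC replicate 1 and 0 elsewhere. IGF2BP2, the third member of its family and the one that persists in adult tissues, was at 14.1 ± 1.42 TPM, below IGF2BP1 and IGF2BP3. How reads of paralogs were divided in the deposited counts is not given in the sources used here.

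The gene neighbours and partners of the members ranged as widely. AFM and GC, which lie beside ALB and AFP in one gene cluster, were at 0 counts in all 4 libraries, and the AFP repressors ZHX2, ZBTB20 and ZFHX3 were at 2.51 ± 0.365, 3.68 ± 0.831 and 18.0 ± 0.766 TPM in siNC. Among the imprinted fetal growth genes, the non-coding RNA H19 was at 578 ± 134 TPM while IGF2, which lies next to it, was at 0.606 ± 0.198 TPM. MEG3, the maternally expressed neighbour of DLK1, was at 0 counts in siNC. Among the genes linked to SOX9 and the bile duct, the keratin KRT7 was at 403 ± 87.3 TPM and the keratin KRT19 at 2.80 ± 0.353 TPM. Of the transcripts tied to let-7 and the IGF2BP proteins, HMGA1, a chromatin protein, was at 1007 ± 201 TPM, MYC at 324 ± 22.1 TPM and HMGA2 at 8.96 ± 2.41 TPM.

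**Figure D3:**
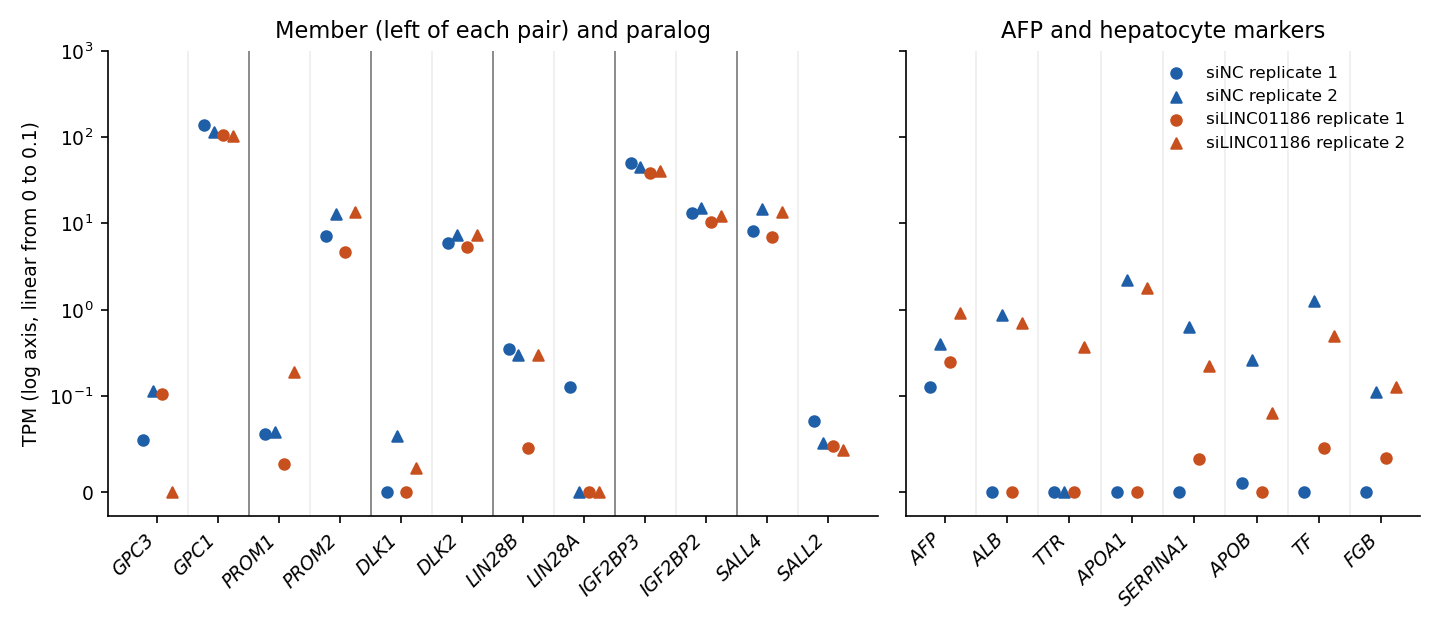
Levels in each of the 4 libraries, with TPM on a log y axis that is linear from 0 to 0.1, for members beside a paralog in the left panel and for AFP and the hepatocyte marker genes in the right panel. GPC1, PROM2 and DLK2 lie above GPC3, PROM1 and DLK1, and the hepatocyte markers are at or near 0 in replicate 1.

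The comparison of siLINC01186 with siNC asked whether knockdown of the RNA moves the oncofetal programme. No member passed the study's limits, an absolute log2 fold change over 1 with an unadjusted p under 0.05, by edgeR's quasi-likelihood test, where 0.756% of the 23942 genes tested passed. Of the 9 members tested (DLK1, with 3 counts in all, was not), 0 had an unadjusted p under 0.05, against 1.21% of all genes tested, and 0 had an adjusted p under 0.05, against 0.0%. With DESeq2's Wald test, 0 members passed either. In none of the 10 were the groups apart, against 26.0% of the genes tested. The median log2 fold change of the 9 members was 0.02, beside 0.00453 over all genes tested. In bulk RNA a difference in cell number of a type and in RNA per cell cannot be told apart.

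The 2 IGF2BP genes, the most abundant members, had fold changes near 1. IGF2BP1 was at 128 and 111 CPM in siNC and at 142 and 95.6 CPM in siLINC01186, replicates 1 and 2. The siLINC01186 libraries held both the highest and the lowest value, and enclosed the siNC libraries. The log2 fold change of IGF2BP1 was −0.01 (SE 0.23, 95% interval −0.52 to 0.51, edgeR's quasi-likelihood adjusted p = 1.00). Within replicate 1 the ratio of siLINC01186 to siNC was 1.11 (exact 95% interval 1.04 to 1.18) and within replicate 2 it was 0.862 (0.806 to 0.922). These intervals lie on opposite sides of 1 and cover counting error only, and with 1 library a group in each pair the difference between the pairs could not be tested.

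IGF2BP3 was at 95.7 and 84.9 CPM in siNC and at 88.4 and 81.2 CPM in siLINC01186. The value was lower in siLINC01186 within both replicate numbers, with ratios of 0.924 (0.857 to 0.995) and 0.957 (0.888 to 1.03), while the groups overlapped. The log2 fold change of IGF2BP3 was −0.09 (SE 0.18, 95% interval −0.50 to 0.32, edgeR's quasi-likelihood adjusted p = 1.00). In linear terms, the 95% interval reached from 0.705 to 1.25 for IGF2BP3 and from 0.695 to 1.42 for IGF2BP1.

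LIN28B had 15 and 12 counts in siNC and 2 and 14 counts in siLINC01186, which is 0.895 and 0.743 CPM against 0.140 and 0.788 CPM. Only siLINC01186 replicate 1 stood apart, below the other 3 libraries and at or under the floor. The ratio within replicate 1 was 0.156 (exact 95% interval 0.0173 to 0.672), and within replicate 2 it was 1.06 (0.455 to 2.51). Over all libraries, the log2 fold change of LIN28B was −0.76 (SE 0.76, 95% interval −2.48 to 0.96, edgeR's quasi-likelihood adjusted p = 1.00). Without siLINC01186 replicate 2 it was −2.49 (edgeR's quasi-likelihood unadjusted p = 0.0392) and past the study's limits, and without siLINC01186 replicate 1 it was −0.06 (edgeR's quasi-likelihood unadjusted p = 0.941).

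The transcription factors also overlapped between groups. SALL4 was at 18.0 and 32.0 CPM in siNC and at 18.6 and 31.8 CPM in siLINC01186. Its values followed the replicate number, with both replicate 2 libraries above both replicate 1 libraries. The log2 fold change of SALL4 between groups was 0.02 (SE 0.33, 95% interval −0.73 to 0.76, edgeR's quasi-likelihood adjusted p = 1.00), and the ratios within the replicate numbers were 1.04 (0.875 to 1.23) and 0.993 (0.880 to 1.12). That SE counts the replicate difference as spread. With the replicate number also in the model, the log2 fold change of SALL4 was 0.02 (SE 0.15).

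SOX9 was at 16.1 and 19.3 CPM in siNC and at 17.7 and 20.6 CPM in siLINC01186. It was higher in siLINC01186 within both replicate numbers, by ratios of 1.10 (0.922 to 1.31) and 1.07 (0.916 to 1.25), and each interval held 1. The log2 fold change of SOX9 was 0.12 (SE 0.22, 95% interval −0.39 to 0.62, edgeR's quasi-likelihood adjusted p = 1.00). The groups overlapped, since siNC replicate 2 lay above siLINC01186 replicate 1.

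EPCAM was at 3.88 and 5.64 CPM in siNC and at 6.02 and 5.01 CPM in siLINC01186. The ratio was 1.55 (exact 95% interval 1.11 to 2.17) within replicate 1 and 0.888 (0.656 to 1.20) within replicate 2. The lowest value was siNC replicate 1 and the highest was siLINC01186 replicate 1. Over all libraries the log2 fold change of EPCAM was 0.21 (SE 0.34, 95% interval −0.55 to 0.97, edgeR's quasi-likelihood adjusted p = 1.00), and its linear interval of 0.684 to 1.96 was wide.

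AFP had 2 and 6 counts in siNC and 4 and 16 counts in siLINC01186. It was higher in siLINC01186 within both replicate numbers, with ratios of 2.34 (exact 95% interval 0.336 to 25.9) and 2.42 (0.900 to 7.56), and each interval held 1. In summed counts the ratio was 2.57 (1.08 to 6.73), which leaves out the spread between libraries. With that spread, the log2 fold change of AFP was 1.28 (SE 0.89, 95% interval −0.74 to 3.29, edgeR's quasi-likelihood unadjusted p = 0.185, adjusted p = 1.00). The hepatocyte markers summed to 0.0597 CPM in siNC and 0.210 CPM in siLINC01186 of replicate 1, where each was near 0. In replicate 2 they summed to 6.75 CPM in siNC and 3.94 CPM in siLINC01186. Their part in the AFP values was not tested.

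PROM1 had 2 and 2 counts in siNC and 1 and 7 counts in siLINC01186, and exceeded the floor only in siLINC01186 replicate 2. The pooled ratio of PROM1 was 2.05 with an exact 95% interval of 0.550 to 9.31. GPC3 had 1 and 2 counts in siNC and 2 and 0 in siLINC01186, and DLK1 had 0 and 2 in siNC and 0 and 1 in siLINC01186. The libraries of GPC3 and DLK1 were all at or under the floor, so that fitted values of these genes are not read as folds and a difference was not detectable at this depth.

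Within single pairs, the members with a log2 CPM difference over 1 (prior count 2) were those with few counts. In replicate 1 this was 1 of the 10 members, LIN28B, against 9.77% of the genes tested. In replicate 2 these were 3 members, AFP, PROM1 and GPC3, against 9.61% of the genes tested, and GPC3 counts there only through 2 against 0 counts, which lie under the floor. No member passed this size in both pairs, and none of the 5 members above the floor in all libraries passed it in either.

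**Figure D4:**
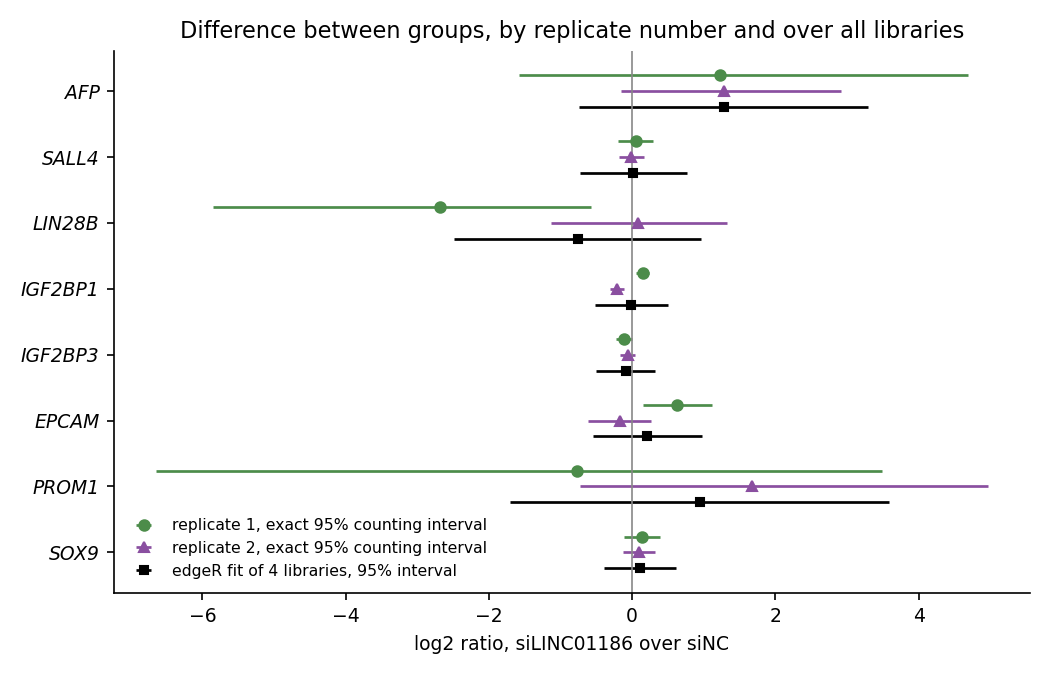
Log2 ratio of siLINC01186 to siNC on the x axis for 8 members, within replicate 1 (circles) and within replicate 2 (triangles) with exact 95% intervals that cover counting error only, and in the edgeR fit of the 4 libraries (squares) with its 95% interval. IGF2BP1 and EPCAM lie above 0 in replicate 1 and below 0 in replicate 2, and AFP, PROM1 and LIN28B have wide intervals.

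Some members followed the replicate number. Replicate 2 was compared with replicate 1 in a model with the group and the replicate number, again by edgeR's quasi-likelihood test. Of the 9 members tested, 2 had an adjusted p under 0.05, 1 higher and 1 lower, and 17.5% of all genes tested did (7.96% higher and 9.55% lower), so that this share is close to the background. SALL4 was 1.74-fold higher in replicate 2, with a log2 difference of 0.80 (SE 0.15, edgeR's quasi-likelihood adjusted p = 2.20e-06), and both replicate 2 libraries lay above both replicate 1 libraries. With edgeR's expression filter, the adjusted p of SALL4 by the same test was 0.00582. IGF2BP1 was lower in replicate 2, by a ratio of 0.762 and a log2 difference of −0.39 (SE 0.11, edgeR's quasi-likelihood adjusted p = 0.00588), and with edgeR's expression filter its adjusted p was 0.0513.

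Other genes of known cell types differed by replicate number beside SALL4 and IGF2BP1. Of the hepatocyte markers, 5 of the 6 tested were higher in replicate 2 at an adjusted p under 0.05 by edgeR's quasi-likelihood test, ALB, APOA1, SERPINA1, APOB and TF. The summed stromal markers COL1A1, COL3A1, DCN and PDGFRB were at 44.9 to 46.7 CPM in replicate 1 and 81.3 to 81.4 CPM in replicate 2, and 3 of the 4 passed the same test. PROM2 was higher in replicate 2 by 1.09 on the log2 scale, and HMGA2 was lower, with a log2 difference of −1.09. The labels do not say what else a replicate number shares, and the part of these genes in the differences of SALL4 and IGF2BP1 was not tested.

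The wider set of 56 partner symbols, the paralogs, gene neighbours, regulators and targets named above and their like, was compared between siLINC01186 and siNC in the same fit. Of these, 55 were in the table and 46 were tested, and 0 passed the study's limits. By edgeR's quasi-likelihood test without a replicate block, 1 gene had an unadjusted p under 0.05 and 0 had an adjusted p under 0.05. The groups were apart in 14 genes, 6 higher and 8 lower in siLINC01186, against 13.6% higher and 12.4% lower of all genes tested. The median log2 fold change of the 46 genes was −0.13.

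The gene with an unadjusted p under 0.05 in the fit without a replicate block was ANPEP, the surface peptidase CD13 and a marker of dormant liver tumour stem cells. ANPEP was at 333 and 229 CPM in siNC and at 202 and 157 CPM in siLINC01186. Both siLINC01186 libraries lay below both siNC libraries. The log2 fold change of ANPEP was −0.65 (SE 0.24, edgeR's quasi-likelihood unadjusted p = 0.0223, adjusted p = 1.00). With the replicate block it was −0.64 (SE 0.10, edgeR's quasi-likelihood adjusted p = 1.65e-06), so the call depends on the block.

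By list, the most abundant gene by mean CPM was given by the same rule for each, and none passed either test in the fit without a replicate block. ZFHX3, of the AFP cluster and its repressors, had a log2 fold change of 0.16. GPC1, of the glypicans and heparan sulfatases, had −0.12, and H19, of the imprinted fetal growth genes, had −0.27. SALL2 had too few counts for a fold. HMGA1, of the let-7 axis, had −0.30, CD44, of the stem surface markers, had −0.16, and KRT7, of the biliary progenitor genes, had −0.12. Their groups overlapped except for ZFHX3, which was higher in both siLINC01186 libraries.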

How the data were processed

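For each of 4 libraries the authors deposited raw counts by gene and TPM. The TPM equalled counts divided by the deposited gene length and scaled to 1000000 a library, with a largest difference of 2.91e-05. The submitters' processing notes name HISAT2, TopHat2, Bowtie2, HISAT and hg19, without roles or versions, and the counter, annotation and strand setting are not given in the sources used here. Reads of paralogs or of overlapping and antisense genes can therefore be divided in unknown ways.

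Genes with at least 5 counts over the 4 libraries, 23942 of 44591, were analysed with edgeR 4.0.16 in R 4.3.3 with TMM scaling, the quasi-likelihood test without a block, and Benjamini-Hochberg adjustment over all genes tested. Ratios within a replicate number have exact conditional 95% intervals. DESeq2 1.42.0, other scalings and filters, the replicate block, other prior counts and leaving out each library were the alternatives. The fit without a block was also run on simulated counts of 23085 genes, 200 of them changed by 2 on the log2 scale. It recovered 100% of the changed genes at the study's limits, and 330 unchanged genes passed them too. The changed genes were drawn only from genes with at least 100 summed counts, which AFP, LIN28B, PROM1, GPC3 and DLK1 did not reach. The simulated counts held no difference between replicate numbers, so they do not show how the fit performs on these libraries.

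The 10 genes and all lists were chosen with earlier results of these data known. Named partner genes were those past the study's limits or an adjusted p of 0.05 with or without the replicate block, and the most abundant gene of each list; other paralogs and partners given with baseline levels were chosen after their values were seen. CD24 was not found among 97 symbols, and TUT4 and TUT7 were matched through RefSeq synonyms. Coordinates of 3′UTR windows are those of GRCh38, and no hg19 sequence was used. Values of 1 partner gene are not reported here.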

Additional observations from a re-analysis of the deposited data

How the results depend on the processing

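The count of genes past the study's limits, 111 higher and 70 lower, was 15 and 12 with DESeq2's Wald test (1 at an adjusted p under 0.05) and 32 and 14 with edgeR's expression filter. With at least 1 count in any library, 5 genes had an adjusted p under 0.05. Leaving out each library in turn gave 81 to 282 genes higher, 93 to 201 lower, 0 to 6 at an adjusted p under 0.05 and 0 to 1 members past the limits; a lone library is then assumed to vary like the other group. The members' log2 fold changes then ranged from −0.43 to 0.50 for SALL4, −0.32 to 0.24 for IGF2BP1, −0.0338 to 0.51 for EPCAM, −0.0101 to 0.26 for SOX9 and −0.74 to 1.64 for PROM1, and the fitted value of GPC3, which rests on counts under the floor and is not read as a fold, was 0.57 in the only such fit where it was tested. AFP ranged from 0.19 to 2.27, LIN28B from −2.49 to −0.06 and IGF2BP3 from −0.17 to −0.0018. Genes differing between replicate numbers at an adjusted p under 0.05 were 4191, and 2754 with the expression filter, with 1 member in place of 2. A prior count of 0.5 gave 2 members past a log2 difference of 1 in replicate 1 in place of 1. The cause of these shifts was not tested.

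With the replicate block, 278 genes had an adjusted p under 0.05, among them 0 members and, lower in siLINC01186, ANPEP (edgeR's quasi-likelihood adjusted p = 1.65e-06), HMGA1 (0.00655) and HMGA2 (0.0378). For the 5 members above the floor in all libraries, the SE of the log2 fold change was 0.11 to 0.23 with the block, in place of 0.18 to 0.34. Deviations of same-numbered libraries correlated at 0.563 over 16848 genes. The first principal component, the direction of greatest spread between libraries, held 62.4% of the variance. Both replicate 1 libraries lay on its negative side and both replicate 2 libraries on its positive side. Same-numbered libraries were thus alike in expression, while the labels do not say what a replicate number marks.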

Other observations

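Pluripotency genes were mostly silent beside SALL4 and the IGF2BP genes. POU5F1 was at 5.32 ± 1.03 TPM in siNC (SD, n = 2), SOX2 at 0.742 ± 0.175 TPM, and NANOG and DPPA4 at 0 counts in all 4 libraries. The 7 genes of this list summed to 6.37 to 8.86 CPM, with no gene of it past either test between groups. Of the enzymes of the mature hepatocyte, CYP7A1 and TDO2 were at 0 counts in all libraries, and CPS1 made up nearly the whole sum. Immune markers summed to 52.8 to 58.8 CPM, mostly CD68, with PTPRC at 0 to 2 counts and CD3E at 0, and endothelial markers summed to 1.97 to 4.39 CPM.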
